A study of Mus musculus with 6 samples.

Results

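The genes described here build and remodel the extracellular matrix of the ovary, with 43 members chosen by symbol from a list and found in 43 rows of the 47205 genes of the deposited table. They comprise 22 interstitial matrix genes, 12 basement membrane genes, 6 genes of cross-linking and remodelling, and 3 markers of stromal cells. The interstitial genes are 5 fibrillar collagens, 3 collagen VI chains, 4 small leucine-rich proteoglycans and 10 elastic fibre genes and other glycoproteins, and the basement membrane genes are 7 laminin chains and 5 linkers and proteoglycans.

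RNA sequencing was carried out on whole mouse ovaries at 9 days post partum. One group of 3 libraries came from wild-type ovaries (WT), and the other group of 3 came from ovaries with SRSF1, a serine/arginine-rich splicing factor, knocked out in granulosa cells (cKO). The comparison asks how that loss alters gene expression in the ovary. The Cre driver, the strain and any pooling of animals were not given in the sources used here. The labels do not state whether each replicate is a different animal. The p-values then measure the spread among these 6 libraries alone, which may be technical.

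Interstitial matrix is laid down mainly by stromal cells between the follicles. Fibrillar collagens give it tensile strength, small proteoglycans and collagen VI organise the fibrils, and elastic fibres let it stretch. Basement membranes are thin sheets of laminin and collagen IV, held together by nidogens and perlecan, and one of them wraps the granulosa cells of each follicle and parts them from the stroma. In whole-tissue RNA, a smaller share of a cell type and less RNA per cell cannot be told apart.

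The 6 libraries held 16.8 to 18.7 M reads, recovered from the deposited values, and the members took 2.55% to 3.40% of them. Srsf1 (chromosome 11, 87937325 to 87944583, in GRCm39 as all gene positions here) stood at 39.9, 49.6 and 46.3 FPKM (reads per length of the gene, scaled to the reads of its library) in WT replicates 1, 2 and 3. In cKO it stood at 20.3, 26.9 and 21.4 FPKM, so that the groups did not overlap (log2 fold change -0.96 with an SE of 0.134, adjusted p = 0.32 by limma). Foxl2, a granulosa cell transcription factor gene, stood at 138, 224 and 204 against 132, 124 and 105 FPKM. Ovarian identity was present in every library, with summed oocyte markers at 1854 to 1998 FPKM in WT and 1835 to 2019.9 in cKO and granulosa markers at 794 to 875 and 633 to 779.5. The libraries also differed by gene length. Genes of 8 kb or more stood, at the median of 1875 genes, 0.12 above their mean over the 6 libraries in WT replicate 2 and -0.15 from it in cKO replicate 2 on the log2 scale, and the 1531 genes under 1 kb went the other way (-0.19 and 0.20). Both libraries therefore stand apart, in opposite directions. The plot of deviation by gene length shows this.

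**Figure D1:**
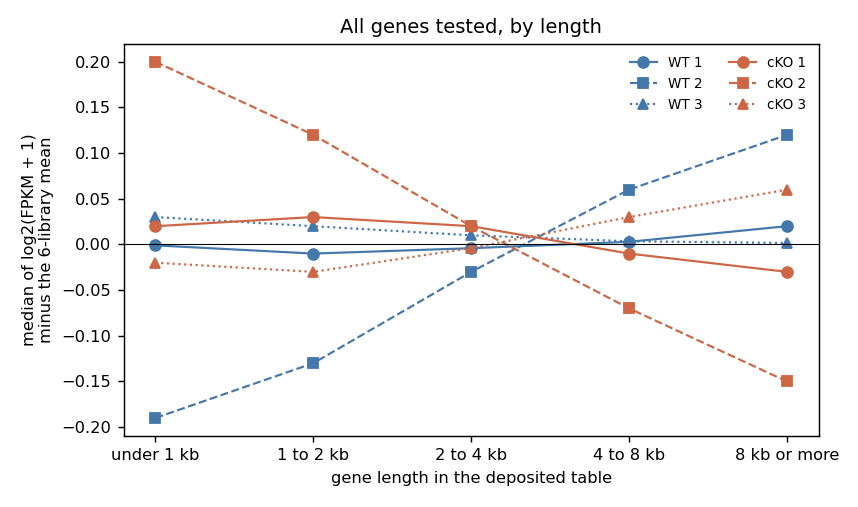
All genes tested, split by their length in the deposited table (horizontal axis), with the median deviation of log2(FPKM + 1) from the mean of the 6 libraries (vertical axis) for each library. WT replicate 2 runs from -0.19 to 0.12 and cKO replicate 2 from 0.20 to -0.15, while the other 4 libraries stay between -0.03 and 0.06.

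All 43 members passed the filter of a mean of at least 1 FPKM, along with 14714 genes in all. None, higher or lower, passed the test between cKO and WT (limma, Benjamini-Hochberg adjusted p under 0.05 over all genes tested), where 0.0204% of all genes did (0.0068% higher and 0.0136% lower). The smallest adjusted p among members was 0.713. At an unadjusted p under 0.05, 1 member was higher in cKO and 0 were lower, against 3.64% and 2.7% of all genes tested. For 2 members the groups held no overlapping values, both higher in cKO, where 6.37% of all genes were higher in this way and 5.89% lower. Of the members, 26 had a log2 fold change above 0 and 17 below, with a median of 0.06, and 50% of all genes were above 0. Leaving out WT replicate 1 turned these counts to 16 and 27 (median -0.06) and leaving out cKO replicate 2 to 21 and 22 (median -0.0023). With values rescaled to a common total they were 20 and 23, and with quantile normalization 15 and 28, so the direction of the set as a whole is not settled by these libraries.

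**Figure D2:**
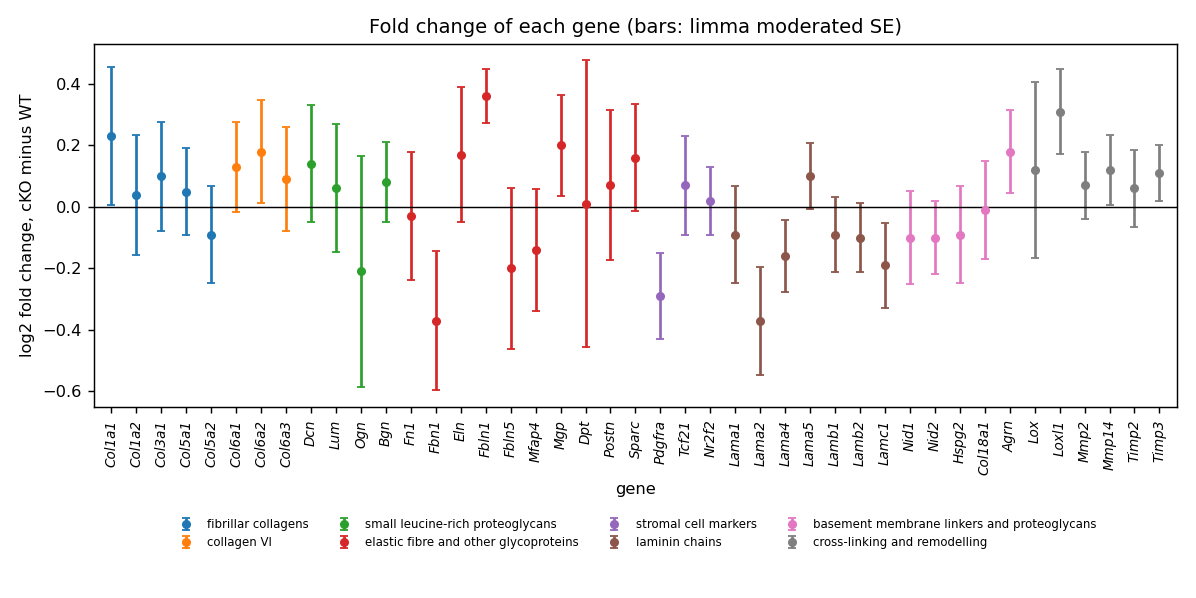
Log2 fold change of each of the 43 genes, cKO minus WT (vertical axis), coloured by role, with bars of 1 limma moderated SE on either side. Fold changes run from -0.37 (Fbn1 and Lama2) to 0.36 (Fbln1), and none passed the adjusted threshold.

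Promoter sequences are shown for some of the members described below. The sequences are those of the fibrillar collagen genes Col1a2 and Col3a1, of Fbln1, the member with the smallest p, and of the basement membrane genes Lamb1, Hspg2 and Lama2. Each runs 5′ to 3′ over 300 bases, most of them before an annotated start, and comes from RefSeq (GRCm38.p6). Capitals mark CCAAT and GGGCGG on either strand, the letters of the CCAAT box and the GC box. Where a gene has more than 1 annotated start, the one with the most CpG pairs is shown.
Col1a2 promoter, chr6:4505368-4505667, plus strand: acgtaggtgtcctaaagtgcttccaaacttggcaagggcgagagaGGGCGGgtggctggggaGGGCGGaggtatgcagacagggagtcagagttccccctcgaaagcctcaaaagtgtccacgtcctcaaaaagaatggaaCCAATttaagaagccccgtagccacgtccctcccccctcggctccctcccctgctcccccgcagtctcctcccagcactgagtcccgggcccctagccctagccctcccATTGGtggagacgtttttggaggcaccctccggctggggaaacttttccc
Col3a1 promoter, chr1:45311288-45311587, plus strand: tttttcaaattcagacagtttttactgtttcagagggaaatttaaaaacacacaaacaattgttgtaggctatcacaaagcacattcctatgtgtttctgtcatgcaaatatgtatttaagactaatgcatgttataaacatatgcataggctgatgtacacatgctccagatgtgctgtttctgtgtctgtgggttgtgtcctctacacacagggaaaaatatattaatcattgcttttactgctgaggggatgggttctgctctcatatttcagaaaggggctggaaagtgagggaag
Fbln1 promoter, chr15:85205758-85206057, plus strand: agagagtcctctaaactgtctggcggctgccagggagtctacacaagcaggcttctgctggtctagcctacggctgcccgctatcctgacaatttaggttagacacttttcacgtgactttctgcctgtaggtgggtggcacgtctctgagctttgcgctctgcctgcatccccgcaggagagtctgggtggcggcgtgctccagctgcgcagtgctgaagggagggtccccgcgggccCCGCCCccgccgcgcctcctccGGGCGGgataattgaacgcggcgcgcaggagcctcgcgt
Lamb1 promoter, chr12:31265043-31265342, plus strand: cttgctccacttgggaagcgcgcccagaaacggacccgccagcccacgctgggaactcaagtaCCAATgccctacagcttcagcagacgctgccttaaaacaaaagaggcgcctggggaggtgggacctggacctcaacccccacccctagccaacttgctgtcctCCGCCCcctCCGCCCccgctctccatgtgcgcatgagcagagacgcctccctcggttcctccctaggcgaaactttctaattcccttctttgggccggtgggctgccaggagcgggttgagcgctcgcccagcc
Hspg2 promoter, chr4:137468553-137468852, plus strand: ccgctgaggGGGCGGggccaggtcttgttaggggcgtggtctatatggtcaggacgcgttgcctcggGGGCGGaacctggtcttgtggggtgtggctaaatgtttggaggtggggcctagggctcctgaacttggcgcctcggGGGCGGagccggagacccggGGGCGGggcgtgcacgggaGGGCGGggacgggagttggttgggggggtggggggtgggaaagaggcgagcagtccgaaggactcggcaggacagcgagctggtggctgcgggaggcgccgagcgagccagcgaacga
Lama2 promoter, chr10:27616893-27617192, minus strand: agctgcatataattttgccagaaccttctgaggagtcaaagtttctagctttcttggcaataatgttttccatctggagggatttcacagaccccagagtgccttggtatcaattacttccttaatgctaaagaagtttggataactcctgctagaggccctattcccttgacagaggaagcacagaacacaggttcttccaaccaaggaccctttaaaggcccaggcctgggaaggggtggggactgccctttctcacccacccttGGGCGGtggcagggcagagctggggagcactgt
The 2 collagen promoters were unlike in these letters. Col1a2 held 2 CCAAT and 2 GGGCGG matches and 13 CpG pairs, and Col3a1 held 0 of all 3. Hspg2 held 5 GGGCGG matches and 27 CpG pairs, Lamb1 had 1 CCAAT, 2 GGGCGG and 18 CpG pairs, Fbln1 had 2 GGGCGG and 24 CpG pairs, and Lama2 had 1 GGGCGG and 1 CpG pair. RefSeq promoters were at hand for 28 of the 43 members (34 starts). Of the 10 starts of basement membrane genes, 80% held GGGCGG on either strand and 30% held CCAAT, with a median of 17 CpG pairs. Among the 18 starts of interstitial genes the shares were 44.4% and 16.7%, with a median of 7. Over all 32851 promoters, 35.7% held GGGCGG and 37.4% CCAAT, with a median of 7. A reverse-strand CCAAT match can overlap a GGGCGG match, and both describe only the letters of these windows.

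The most abundant members were interstitial (FPKM is a level per length, so levels of different genes can be compared). In WT, Sparc, which encodes a collagen-binding glycoprotein of the matrix, ranked 26 among the 14714 genes tested, Col1a2 ranked 27, Col3a1 36 and Col1a1 37. Decorin (Dcn) ranked 90, Col6a1 106 and Mfap4 117. The highest basement membrane gene was Nid1 at rank 248, and the lowest member was the laminin chain gene Lama5 at rank 7923 with 7.62 ± 0.818 FPKM in WT (SD, n = 3). Interstitial genes took 1.77% to 2.38% of recovered reads in WT and 1.93% to 2.65% in cKO. Basement membrane genes took 0.465% to 0.56% and 0.449% to 0.513%.

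**Figure D3:**
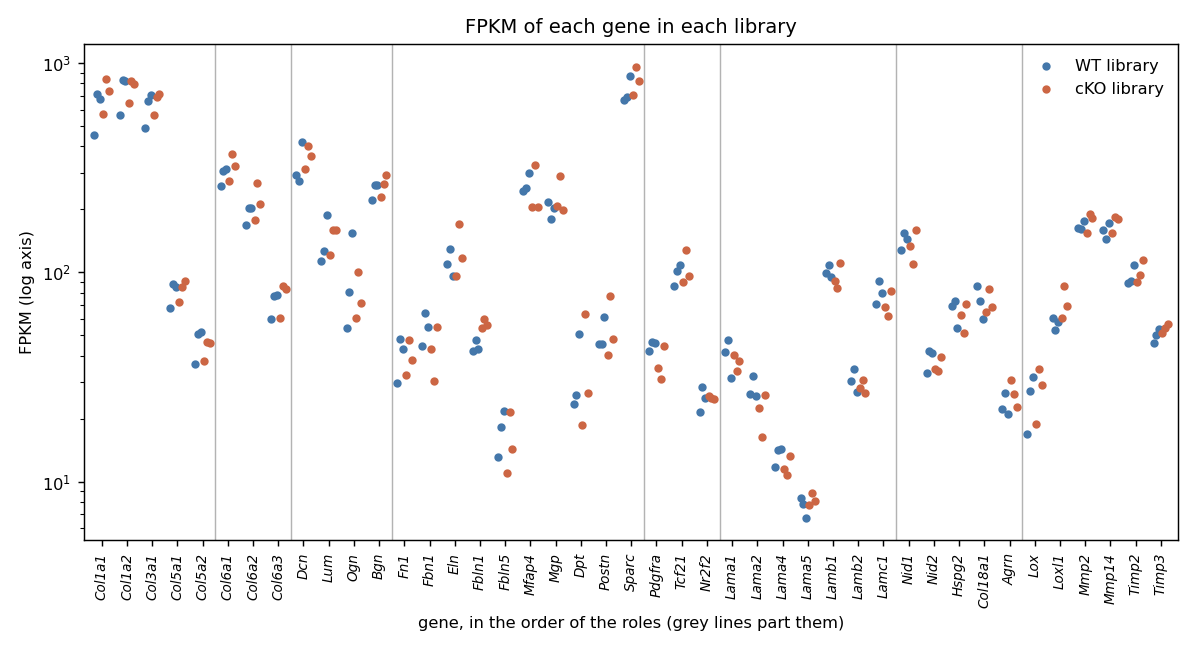
FPKM of each gene in each library on a log axis, in the order of roles parted by grey lines, with WT libraries in blue and cKO libraries in orange, replicates 1, 2 and 3 from left to right within a group. Sparc, Col1a2, Col3a1 and Col1a1 stand highest, and the colours overlap in 41 of the 43 genes.

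Fibrillar collagens were present at the same order of level in both genotypes. Col1a1, the alpha 1 chain of type I collagen (chromosome 11, 94827050 to 94843868, plus strand), stood at 451, 711 and 676 FPKM in WT and 569, 837 and 733 FPKM in cKO (log2 fold change 0.23 with an SE of 0.225, adjusted p = 0.865 by limma). Without WT replicate 1 its log2 fold change was 0.02, and without cKO replicate 2 it was 0.10. The partner of Col1a1 in type I collagen, Col1a2 (chromosome 6, 4505618 to 4541543), stood at 562, 828 and 823 against 642, 818 and 795 FPKM (log2 fold change 0.04 with an SE of 0.195, adjusted p = 0.973 by limma). WT replicate 1 was the lowest of the 6 libraries for both, and cKO replicate 1 the next lowest for both. Type III collagen, which forms thinner and more compliant fibrils, is encoded by Col3a1 (chromosome 1, 45350698 to 45388866). It stood at 491, 658 and 702 FPKM in WT and 564, 689.5 and 712 FPKM in cKO, with the same replicates lowest. Type V collagen, which sets the diameter of type I fibrils, stood lower: Col5a1 at 67.2, 88.1 and 85.1 FPKM in WT and 72.1, 84.7 and 91.4 in cKO, and Col5a2 at 36.6, 50.5 and 52 against 37.5, 46.3 and 45.8 FPKM. In all 5 fibrillar genes WT replicate 1 was lowest, where it was lowest in 12.4% of all genes tested.

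Ratios between collagen genes were also taken within each library. Col1a1 was 0.803, 0.859 and 0.822 times Col1a2 in WT and 0.886, 1.02 and 0.922 times in cKO, so that every cKO library had the higher ratio. Of 15 ratios and shares computed over collagens, laminins, nidogens and Mmp2 to Timp2, this was the 1 whose groups did not overlap. It was not tested. Col5a1 was 1.74 ± 0.0988 times Col5a2 in WT and 1.92 ± 0.0831 times in cKO, and Col3a1 was 1.02 ± 0.0831 and 0.929 ± 0.0917 times Col1a1 (SD, n = 3).

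Collagen VI forms beaded microfilaments that tie cells to the fibrillar matrix, and its chains are encoded by Col6a1, Col6a2 and Col6a3. Col6a1 (chromosome 10, 76544626 to 76561878) stood at 258, 304 and 313 FPKM in WT and 272, 367 and 322 in cKO. Col6a2 stood at 168, 204 and 203 against 178, 267 and 213 FPKM (log2 fold change 0.18 with an SE of 0.167, adjusted p = 0.863 by limma), and without cKO replicate 2 its log2 fold change was 0.03. Col6a3 stood at 59.8, 76.7 and 78.1 against 60.6, 85.9 and 83.4 FPKM. In all 3 genes WT replicate 1 was lowest and cKO replicate 2 highest. Col6a1 was 1.52 ± 0.0294 times Col6a2 in WT and 1.47 ± 0.0841 times in cKO.

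Small leucine-rich proteoglycans coat collagen fibrils and regulate their assembly. Dcn, which encodes decorin (chromosome 10, 97315362 to 97354025), stood at 291, 274 and 422 FPKM in WT and 313, 400.0 and 360.3 in cKO (log2 fold change 0.14 with an SE of 0.19, adjusted p = 0.896 by limma). The Dcn log2 fold change was 0.02 without WT replicate 2 and 0.34 without WT replicate 3. Lumican (Lum) stood at 113, 127 and 188 against 121, 159 and 160.1 FPKM, and biglycan (Bgn) at 221, 261 and 262 against 229.8, 263 and 293. Osteoglycin (Ogn) was spread widely within WT, from 54 and 80.6 FPKM in replicates 1 and 2 to 155 in replicate 3, with 60.5, 100.4 and 71.6 in cKO. WT replicate 3 was the highest library for Dcn, Lum and Ogn.

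Fbln1 had the smallest p of the members. It encodes fibulin 1, a glycoprotein of elastic fibres and basement membranes (chromosome 15, 85090150 to 85170495, plus strand). Its level was 42.2, 47.3 and 42.8 FPKM in WT and 54.3, 59.7 and 56.3 FPKM in cKO, so every cKO library stood above every WT library. The log2 fold change was 0.36 with an SE of 0.0868, with a limma unadjusted p = 0.00443 and adjusted p = 0.713. Permuting the 6 library labels for Fbln1 by itself (exact, two-sided) gave 0.1, the lowest p open to groups of 3. Its log2 fold change lay between 0.30 and 0.41 in all 14 alternatives, each with an unadjusted p under 0.05 and none past the adjusted threshold. Some of these, a block for the replicate number and changed filters, cannot move the fold change and alter only its p.

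Markers of several other cell types also differed in their group means, and their part in the Fbln1 difference was not tested. Of the 9 surface mesothelium markers 9 had a higher mean in cKO, 6 of them without overlap, with summed levels of 169 to 225 FPKM in WT and 247 to 344 in cKO. The mean was higher for all 9 leukocyte markers, 7 without overlap (sums of 31.8 to 44.9 against 65.4 to 159 FPKM), and for all 8 endothelial markers, 3 without overlap (139 to 142 against 158 to 165 FPKM). It was lower for 8 of 9 granulosa markers, 4 without overlap (794 to 875 against 633 to 779.5 FPKM). Over all genes tested, 6.37% were higher without overlap and 5.89% lower. Single markers departed from this, such as the macrophage gene Adgre1, which in cKO replicate 2 stood at 1.03 FPKM, below its 3 WT values. None of these markers was at 0 in any library. Over 7 other stromal markers the sums were 104 to 121 FPKM in WT and 94.3 to 110.5 in cKO, with 3 higher and 4 lower.

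The other elastic fibre genes showed no common direction. Fbn1, which encodes fibrillin 1 of the microfibrils (chromosome 2, 125142514 to 125348417), stood at 44.5, 63.8 and 55 FPKM in WT and 43.1, 30.1 and 54.6 in cKO (log2 fold change -0.37 with an SE of 0.227, adjusted p = 0.811 by limma). Only cKO replicate 2 lay well below the WT libraries, and without it the log2 fold change was -0.15. Elastin (Eln) went the other way in that library, with 110.0, 129 and 96.1 FPKM in WT and 96.4, 171 and 117 in cKO. With the length trend removed, the log2 fold change was -0.29 for Fbn1 (10126 bases) and 0.18 for Eln (3974 bases, 0.17 before removal). The part of gene length in these values was not tested. Fbln5, which helps deposit elastin on microfibrils, stood at 13.1, 18.3 and 21.8 against 11, 21.5 and 14.3 FPKM, and Mfap4, a microfibril-associated protein gene, at 244, 252 and 297 against 206, 325 and 205 FPKM.

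Dermatopontin (Dpt), which binds decorin and collagen, had the widest range of all members, 3.36-fold. It stood at 23.6, 25.8 and 50.8 FPKM in WT and 18.7, 63 and 26.6 in cKO, so that WT replicate 3 and cKO replicate 2 stood above the other 4 libraries. Periostin (Postn), a matricellular protein gene of collagen-rich tissue, had the same pair highest. Its values were 45.2, 45.6 and 61.4 FPKM in WT and 40.2, 76.8 and 47.9 in cKO. Dcn, Ogn, Fbln5, Mfap4, Sparc, Tcf21 and Lox also had this pair highest, and no other member did. The contractile genes among the smooth muscle and pericyte markers, Acta2, Myh11, Cnn1 and Des, were also highest in this pair, and their part in these values was not tested. The pericyte markers Cspg4 and Notch3 were lowest in WT replicate 3, and Rgs5 and Kcnj8 did not have this pair highest either. The sum over the list was 200.2 FPKM in WT replicate 3 and 207 in cKO replicate 2, against 101 to 142 in the other 4 libraries, with Acta2 its largest term. Acta2, smooth muscle actin, stood at 69.7, 71.6 and 113 FPKM in WT and 46.7, 115 and 52.4 in cKO. None of the 9 markers was at 0 in any library, and Tagln lay below the filter.

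Matrix Gla protein (Mgp), an inhibitor of calcification, stood at 216, 179 and 202 FPKM in WT and 207, 289 and 199 in cKO (log2 fold change 0.20 with an SE of 0.165, adjusted p = 0.85 by limma). Without cKO replicate 2 its log2 fold change was 0.03, and with the length trend removed it was 0.06. Sparc stood at 666, 691 and 872 against 704, 963 and 819 FPKM. Fibronectin (Fn1), which cells bind through integrins, stood at 29.7, 48.1 and 42.9 against 32.2, 47.3 and 38.2 FPKM, with replicate 1 lowest in each group. Over the 10 genes of this role, 7 were highest in cKO replicate 2, where 24.3% of all genes tested were.

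The stromal cell markers did not differ past the threshold. Pdgfra, a receptor for platelet-derived growth factor on fibroblasts (chromosome 5, 75311988 to 75358867), stood at 42.1, 46.7 and 45.8 FPKM in WT and 35, 31 and 44.6 in cKO (log2 fold change -0.29 with an SE of 0.139, unadjusted p = 0.0742 by limma). With the length trend of each library removed the log2 fold change was -0.21. Tcf21, a transcription factor gene of mesenchymal cells, stood at 86.2, 102 and 109 against 89.5, 128 and 95.9 FPKM. Nr2f2, which encodes the orphan nuclear receptor COUP-TFII of stromal and theca-lineage cells, stood at 21.4, 28.2 and 25.2 against 25.6, 25 and 24.8 FPKM, with the cKO libraries inside the WT range.

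Laminins are cross-shaped molecules of an alpha, a beta and a gamma chain, and the alpha chain sets much of their receptor binding. In WT the alpha chain genes summed to 89.1 ± 11.6 FPKM, the beta chain genes to 132 ± 10.2 and Lamc1 alone to 80.3 ± 10.4. In cKO the values were 78.8 ± 8.2, 124 ± 11.9 and 70.5 ± 9.91 FPKM, with overlapping libraries for each. Lama1 supplied 44.7% ± 4.01 of the alpha sum in WT and 47.2% ± 2.69 in cKO, and Lama2 31.4% ± 1.52 and 27.2% ± 3.6. Lama4, the alpha chain of vessel walls, supplied 15.3% ± 2.7 and 15.1% ± 0.923, and Lama5 8.6% ± 0.862 and 10.5% ± 1.85. Lamb1 made up 76.8% of the beta sum in both groups (SD 1.09 in WT and 3.63 in cKO).

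Lama2, the alpha chain best known from muscle basement membrane (chromosome 10, 26857281 to 27493021, minus strand), had the smallest p of this role. It stood at 26.3, 31.8 and 25.7 FPKM in WT and 22.5, 16.3 and 26 in cKO (log2 fold change -0.37 with an SE of 0.176, limma unadjusted p = 0.0712 and adjusted p = 0.777). The cKO replicate 3 value lay inside the WT range. Without cKO replicate 2 the log2 fold change was -0.19, and with the length trend removed it was -0.28. Lamc1 (chromosome 1, 153094668 to 153208532) stood at 70.2, 90.9 and 79.8 against 68.3, 61.9 and 81.4 FPKM. The groups overlapped for Lama2 and Lamc1 alike. Lamb1, the most abundant laminin chain gene (chromosome 12, 31315230 to 31379643), stood at 99.3, 108 and 95.5 against 90.9, 84.1 and 110.4 FPKM. Lama4 stood at 11.8, 14.1 and 14.3 against 11.5, 10.8 and 13.3 FPKM. Lama5 was the 1 laminin chain with a log2 fold change above 0, at 8.33, 7.82 and 6.73 against 7.69, 8.79 and 8.11 FPKM. This chain is found in many epithelial basement membranes. Lama1, the chain of early embryonic basement membranes, stood at 41.6, 47.4 and 31.3 against 40.3, 33.6 and 37.5, and Lamb2 at 30.4, 34.4 and 26.9 against 27.9, 30.6 and 26.6 FPKM. The laminin chains were thus highest in WT replicate 2 for 4 of 7 and lowest in cKO replicate 2 for 4 of 7.

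Nidogens bridge laminin and collagen IV. Nid1 (chromosome 13, 13612187 to 13686860) stood at 128, 155 and 144 FPKM in WT and 134, 109.8 and 159 in cKO, and Nid2 at 33.2, 42.1 and 41.2 against 34.7, 33.9 and 39.3 FPKM (log2 fold change -0.10 with an SE of 0.118, adjusted p = 0.88 by limma). Perlecan (Hspg2), the main heparan sulfate proteoglycan of basement membranes, stood at 69, 73.2 and 54.3 against 62.4, 51.3 and 70.5 FPKM. Agrin (Agrn), a proteoglycan that binds laminin and dystroglycan, had the smallest p of these linkers, at 22.3, 26.4 and 21 against 30.6, 26.2 and 22.8 FPKM (log2 fold change 0.18 with an SE of 0.135, adjusted p = 0.835 by limma). Col18a1, whose product releases endostatin, stood at 86.2, 73.2 and 59.6 against 64.7, 83.6 and 68.4 FPKM. The groups overlapped for all 5.

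**Figure D4:**
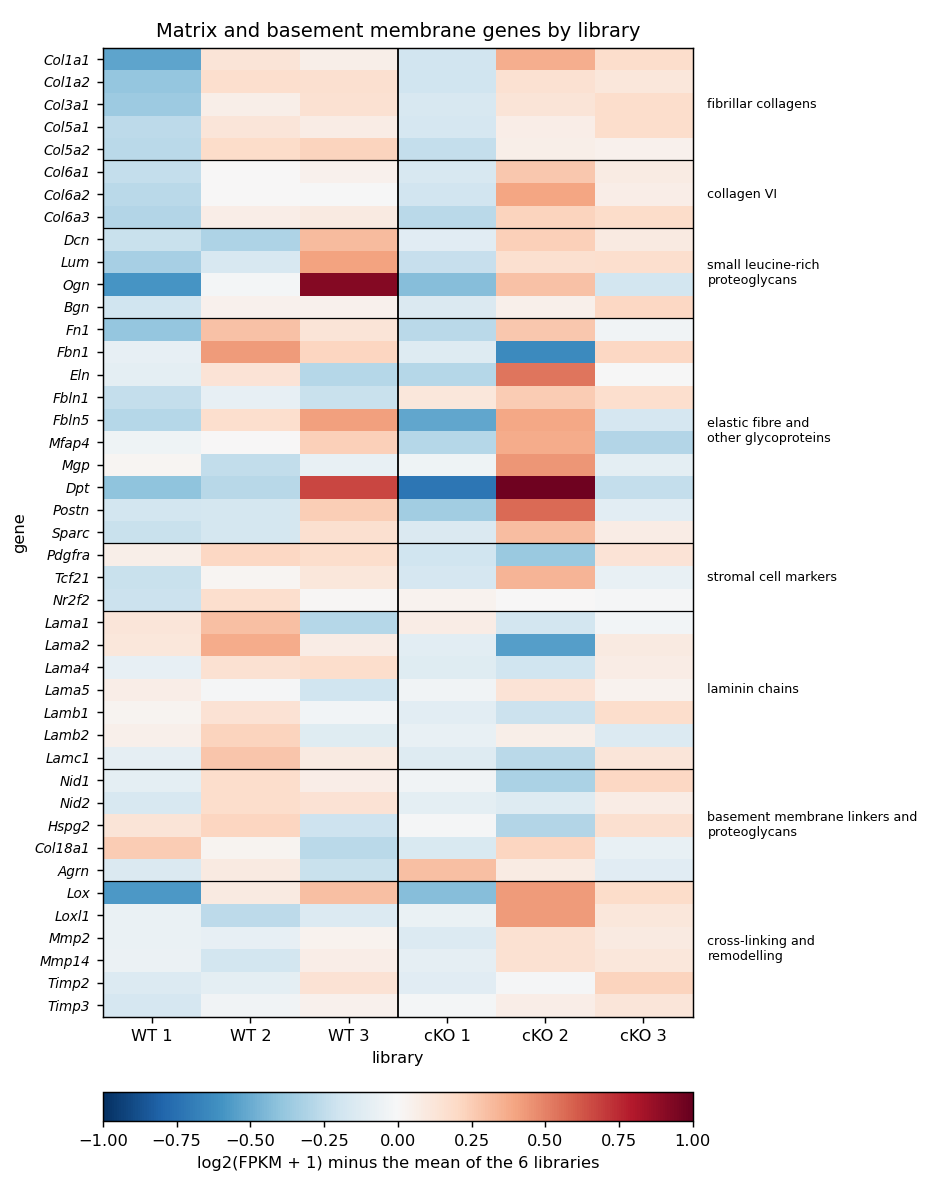
Deviation of log2(FPKM + 1) from the mean of the 6 libraries (colour) for each gene (rows, parted by role) and library (columns, WT to the left of the black line). WT replicate 1 and cKO replicate 1 are blue across most collagens, and cKO replicate 2 is red for most interstitial genes and blue for most laminins and nidogens.

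Genes of matrix cross-linking and remodelling had log2 fold changes above 0 in 6 of 6, with a median of 0.12, and none passed the test. Loxl1, a lysyl oxidase-like enzyme of elastic fibres (chromosome 9, 58195006 to 58220495), stood at 60.6, 52.8 and 57.9 FPKM in WT and 60.6, 85.9 and 69 in cKO (log2 fold change 0.31 with an SE of 0.139, limma unadjusted p = 0.0579 and adjusted p = 0.773). Its groups did not overlap, but WT replicate 1 and cKO replicate 1 are the same at 3 digits. Without cKO replicate 2 the log2 fold change was 0.18. Lox, which cross-links collagen and elastin, stood at 16.8, 27.2 and 31.7 against 18.8, 34.7 and 29.1 FPKM.

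Of the proteases, the gelatinase gene Mmp2 stood at 163, 161 and 175 FPKM in WT and 155, 189.8 and 182 in cKO. The membrane-type protease gene Mmp14, whose product activates MMP2, stood at 159, 145 and 173 against 155, 184 and 179 FPKM (log2 fold change 0.12 with an SE of 0.113, adjusted p = 0.865 by limma). The groups overlapped for both. Timp2, an inhibitor of these proteases that also takes part in MMP2 activation, stood at 88.8, 91.1 and 108 against 90.3, 97.2 and 114 FPKM. Timp3, the inhibitor that binds to matrix, stood at 45.9, 50.4 and 53.4 against 51.1, 54.2 and 56.5 FPKM. Mmp2 was 1.74 ± 0.114 times Timp2 in WT and 1.76 ± 0.178 times in cKO. The count of 6 higher became 5 without WT replicate 1, without cKO replicate 2, without cKO replicate 3 or with a common total, and 4 with quantile normalization.

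Interstitial and basement membrane genes were set against each other in each library. The mean of log2(FPKM + 1) over the 22 interstitial genes was 6.81, 7.10 and 7.26 in WT replicates 1, 2 and 3 and 6.85, 7.35 and 7.12 in cKO. Over the 12 basement membrane genes it was 5.34, 5.50 and 5.26 in WT and 5.29, 5.19 and 5.38 in cKO. The difference between the sides was 1.47, 1.59 and 2.0 in WT and 1.56, 2.16 and 1.74 in cKO, a mean of 1.69 ± 0.28 against 1.82 ± 0.31 (SD, n = 3). cKO stood 0.13 above WT, less than the spread within either group. Without cKO replicate 2 the gap was -0.04, and without WT replicate 3 it was 0.29. By gene, 16 of 22 interstitial members had a log2 fold change above 0 and 10 of 12 basement membrane members one below 0. With 1 library left out, the first count ran from 8 of 22 (without WT replicate 1) to 19 of 22 (without cKO replicate 1), and was 11 of 22 without cKO replicate 2. The second ran from 8 to 10 of 12, with 8 without WT replicate 2 or cKO replicate 2. By another scaling, the interstitial count was 12 with a common total and 9 with quantile normalization, and the basement membrane count was 10 in both.

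**Figure D5:**
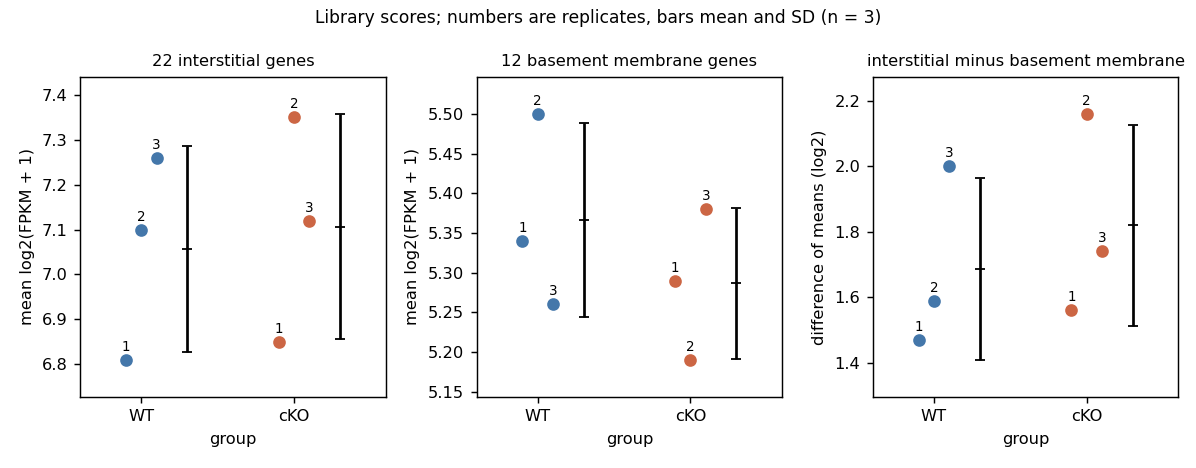
Mean log2(FPKM + 1) over the 22 interstitial genes (left), over the 12 basement membrane genes (middle) and their difference (right), with 1 point per library numbered by replicate and the mean ± SD of each group (n = 3). The difference runs from 1.47 to 2.0 in WT and from 1.56 to 2.16 in cKO.

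Single libraries accounted for many of the extremes. WT replicate 1 was the lowest library for 14 of 22 interstitial genes (12.4% of all genes tested) and for 1 of 12 basement membrane genes. cKO replicate 2 was the highest for 11 of 22 interstitial genes (24.3% of all genes) and the lowest for 6 of 12 basement membrane genes (27.3% of all genes), and WT replicate 2 was the highest for 6 of 12 (18.7% of all genes). The sides also differed in gene length, with a median of 3975 bases for interstitial and 7429 for basement membrane genes. With the length trend removed, the difference between sides was 1.48, 1.68 and 1.99 in WT and 1.54, 2.07 and 1.77 in cKO, and 8 of 12 basement membrane genes stayed below 0. The interstitial count was again 16 of 22. The coefficient of variation within WT had a median of 17.9% over interstitial and 12.1% over basement membrane genes, and in cKO of 18.6% and 14%.

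Other matrix genes, from lists that hold none of the members, also gave 0 calls past the adjusted threshold in each list. Collagen biosynthesis genes, which hydroxylate, fold and trim procollagen, were 10 higher and 9 lower of 19 tested, with 0 at an unadjusted p under 0.05 (6.34% of all genes in either direction). The smallest p values were those of the prolyl hydroxylase subunit gene P4ha2 (4.65 ± 0.478 FPKM in WT, 5.82 ± 1.09 in cKO), the procollagen protease enhancer gene Pcolce (129 ± 6.23 and 149 ± 25.8) and the collagen galactosyltransferase gene Colgalt1 (40.3 ± 1.15 and 37.8 ± 1.6). The cKO mean of Pcolce rests on replicate 2, at 178 FPKM against 135 and 133, and without it the log2 fold change went from 0.19 to 0.05. Of 9 other collagens tested, 3 were higher and 6 lower, with 2 lower at an unadjusted p under 0.05 (2.7% of all genes).

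Some genes of these lists had larger fold changes than any member, none past the adjusted threshold. Tnc, which encodes the matricellular protein tenascin C, stood at 14.5, 26.9 and 21.4 FPKM in WT and 8.58, 11 and 9.79 in cKO (log2 fold change -0.99 with an SE of 0.213, adjusted p = 0.686 by limma), with no overlap. Versican (Vcan), a large hyaluronan-binding proteoglycan, stood at 10, 21.6 and 15.6 against 9.13, 7.39 and 7.83 FPKM (log2 fold change -0.82 with an SE of 0.247, adjusted p = 0.74 by limma). The narrow gap was between WT replicate 1 and cKO replicate 1. Fibrillin 2 (Fbn2) stood at 43, 59.7 and 50.4 against 27.9, 26.2 and 41.5 FPKM. Among collagens, Col12a1, which coats fibrils, stood at 24.2, 39.1 and 34.8 against 17.2, 11.4 and 24.6 FPKM, Col8a1 at 4.05 ± 1.33 and 1.99 ± 0.761, and Col11a1 at 11.8 ± 3.49 and 7.58 ± 1.97. Over the alternatives the log2 fold change ran from -1.22 to -0.80 for Tnc, -1.09 to -0.58 for Vcan, -0.88 to -0.56 for Fbn2 and -1.14 to -0.62 for Col12a1. With the length trend removed these 4 stood at -0.92, -0.72, -0.60 and -0.79.

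In the proteoglycan list 3 of 7 tested genes were higher and 4 lower, among them fibromodulin (Fmod, 6.5 ± 0.817 FPKM in WT and 8.4 ± 1.28 in cKO) and osteomodulin (Omd, 2.43 ± 0.447 and 1.81 ± 0.0937). Of 13 other elastic fibre genes 4 were higher and 9 lower, with Adamtsl2 at 6.55 ± 0.589 and 4.81 ± 0.739 FPKM and fibulin 2 (Fbln2) at 18 ± 2.17 and 28 ± 10.9. The Fbln2 mean rests on cKO replicate 2, at 40.3 FPKM against 19.4 and 24.2 in the other cKO libraries, and without it the log2 fold change went from 0.55 to 0.26. Of 19 other laminin and basement membrane genes 7 were higher and 12 lower, with 4 lower at an unadjusted p under 0.05 (2.7% of all genes). These included Smoc1, a calcium-binding basement membrane protein gene (32.5 ± 1.78 and 24.6 ± 2.44 FPKM), the collagen IV chain gene Col4a5 (24.8 ± 1.23 and 20 ± 2.21) and hemicentin 1 (Hmcn1, 7.1 ± 2.16 and 4.23 ± 1.24). The Hmcn1 groups overlapped. Without overlap, 3 genes of this list were higher and 4 lower (6.37% and 5.89% of all genes). The higher ones were the collagen genes Col4a1 (113 ± 5.05 and 121 ± 1.21 FPKM), Col4a2 (103 ± 4.07 and 109 ± 1.95) and Col15a1 (25.7 ± 2.02 and 32.4 ± 7.37). The lower ones were Smoc1, Col4a5, Col4a4 and Fras1.

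In the list of TGF-beta and matricellular genes, 9 of 16 tested were higher and 7 lower. Tgfb1, a growth factor that stimulates matrix production, stood at 12.4, 13.4 and 13.8 FPKM in WT and 17.5, 17.4 and 16.5 in cKO (log2 fold change 0.36 with an SE of 0.0825, adjusted p = 0.713 by limma), with no overlap. The leukocyte markers had a higher mean in cKO for all 9 and no overlap for 7 (6.37% of all genes were higher without overlap). Their part in the Tgfb1 value was not tested. Thrombospondin 1 (Thbs1), a matricellular protein that can activate latent TGF-beta, stood at 131, 140.2 and 136 against 102, 79.9 and 124 FPKM.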

How the data were processed

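Values were FPKM per gene in 1 table for 6 libraries, deposited by the authors. HISAT2 2.0.5 and the builds mm10 and GRCm39 are named, per the submitters' processing notes. The table's chromosome accessions are those of GRCm39, and positions are the table's own except for promoters (RefSeq, GRCm38.p6). Counter, annotation and strandedness were not given in the sources used here, so reads of overlapping genes cannot be told apart. FPKM times gene length gave whole reads for 99.9% to 100% of values (tolerance 0.01).

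Values were tested as log2(FPKM + 1), which understates changes of low genes, with limma 3.58.1 in R 4.3.3 (trended prior, two-sided) on the 14714 genes whose mean reached 1 FPKM, Benjamini-Hochberg adjusted, threshold 0.05. Members and lists were chosen with earlier results of these data known. All 43 members were named with their value in every library. The rule asked for this for up to 4 members of each role with the smallest p, the most abundant one and those without overlap, and the others were added. Up to 3 genes of each pathway list with the smallest p were named, with Srsf1 and Foxl2. Genes without overlap in the list of other laminin and basement membrane genes were added. Alternatives were a pseudocount of 0.1, no filter or one at 5 FPKM, a common total, quantile normalization, a replicate block and leaving out each library. Added after seeing the data were limma-voom on recovered reads and removal of each library's length trend (lowess, span 0.3).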

Additional observations from a re-analysis of the deposited data

How the results depend on the processing

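No member passed the adjusted threshold in any of the 14 alternatives (limma, and limma-voom). Members at an unadjusted p under 0.05 numbered 1, 2 with a common total and 1 to 4 with a library left out, 4 without cKO replicate 3. The calls over all genes went from 3 to 0 with no filter, the replicate block and limma-voom, to 1 with the length trend removed, and to 0 to 2 with a library left out. The cause was not tested. Same-numbered libraries gave correlations of deviations of 0.18, -0.08 and -0.06, so the numbers were not taken as pairs. With the replicate block 0 members were called. In this balanced design the block leaves each log2 fold change as it was, so it could not change a direction. The same holds for the changed filters. Srsf1 kept its direction throughout, from -1.08 to -0.88.

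Directions held in all alternatives for 20 members, though the replicate block and the changed filters could not change a direction. With a common total the log2 fold change turned to -0.02 for Col1a2, -0.02 for Col5a1, -0.0032 for Lum, -0.05 for Dpt, -0.04 for Nr2f2 and -0.0029 for Timp2. With quantile normalization it turned to -0.02 for Col1a2, -0.08 for Col3a1, -0.02 for Col5a1, -0.01 for Col6a1, -0.01 for Lum, -0.02 for Bgn, -0.03 for Dpt, -0.0045 for Tcf21, -0.01 for Nr2f2, -0.01 for Mmp2 and -0.01 for Timp2. With the length trend removed it turned to 0.05 for Fn1, -0.05 for Dpt, -0.02 for Tcf21, 0.01 for Hspg2 and 0.05 for Col18a1. With a library left out, members that changed direction had ranges of Col1a2 -0.14 to 0.15, Col3a1 -0.06 to 0.20, Col5a1 -0.07 to 0.14, Col5a2 -0.25 to 0.01, Col6a3 -0.03 to 0.25, Lum -0.09 to 0.27, Ogn -0.56 to 0.20, Bgn -0.01 to 0.17, Fn1 -0.23 to 0.11, Eln -0.06 to 0.35, Fbln5 -0.44 to 0.01, Dpt -0.48 to 0.37, Postn -0.19 to 0.27, Tcf21 -0.09 to 0.17, Nr2f2 -0.08 to 0.11, Lama1 -0.26 to 0.04, Nid1 -0.23 to 0.04, Hspg2 -0.22 to 0.03, Col18a1 -0.14 to 0.12, Lox -0.13 to 0.37 and Timp2 -0.03 to 0.15. Among these, 9 changed direction only with a library left out. Members that kept theirs still moved, with ranges such as Agrn 0.08 to 0.28, Mmp14 0.05 to 0.19, Nid2 -0.21 to -0.04 and Pdgfra -0.43 to -0.18.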

Other observations

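Receptors through which cells bind this matrix were 10 higher and 14 lower of 24 tested, with 0 past the adjusted threshold (limma). At an unadjusted p under 0.05, 2 were higher and 1 lower, against 3.64% and 2.7% of all genes tested. Itga3, the alpha subunit of a laminin-binding integrin, stood at 11.3, 11.1 and 9.53 FPKM in WT and 12.8, 13.6 and 13 in cKO, without overlap (log2 fold change 0.28 with an SE of 0.0952, adjusted p = 0.761 by limma). Itga9, the alpha subunit of a tenascin-binding integrin, stood at 33.1 ± 4.96 and 24.5 ± 4.69 FPKM (SD, n = 3 each), and the hyaluronan receptor gene Cd44 at 4.22 ± 0.624 and 5.47 ± 0.632. The Cd44 groups overlapped, and the part of leukocyte markers in its values was not tested.

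Of the other proteases and inhibitors, 9 of 17 tested were higher and 8 lower, with 0 past the adjusted threshold. At an unadjusted p under 0.05, 2 were lower (2.7% of all genes). Adamts12, a secreted metalloprotease gene, stood at 9.51, 13.5 and 14.4 FPKM in WT and 6.8, 7.45 and 9.83 in cKO, and the membrane-type protease gene Mmp16 at 7.45 ± 0.752 and 5.43 ± 1.3. The plasminogen activator gene Plat stood at 35.9, 32.2 and 30 against 37.2, 53.9 and 37.8 FPKM, with no overlap, and without cKO replicate 2 its log2 fold change went from 0.37 to 0.20.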
